A study of Mus musculus with 6 samples.

Results

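The nuclear genes of respiratory complexes III, IV and V were examined in RNA of a fast-twitch muscle of the hindlimb, extensor digitorum longus (EDL). Members were taken by gene symbol: every gene whose symbol starts with Uqc, Cox and a digit, or Atp5, and the genes Cyc1, Cycs, Sco1, Sco2, Surf1, Bcs1l, Ttc19, Atpaf1, Atpaf2 and Atpif1. This gave 65 of the 24411 genes in the table, and 62 of them passed the filter on low counts, as did 12892 genes in all. They were 9 subunits of complex III, 18 subunits of complex IV of which 15 passed, 15 subunits of ATP synthase, the gene of cytochrome c, and 22 assembly factors or regulators. The subunits encoded by the mitochondrial genome were not analysed here. RNA came from mice aged 50 weeks, 3 of them mAktDKO and 3 control floxed. The mAktDKO mice carried floxed alleles of both Akt1 and Akt2 and Mlc1f-Cre. The control mice carried the same floxed alleles without Cre, so the groups differ in the Cre knock-in at the Mlc1f locus as well as in the loss of Akt. Deletion is therefore driven mostly in fast fibres, where Mlc1f is a myosin light chain, and little of it is to be expected in satellite cells. The labels write mAktKO for these mice. Each sample is 1 mouse, and the control mice carry the numbers 2 to 4 in the table.

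Complex III passes electrons from ubiquinol to cytochrome c, complex IV passes them from cytochrome c to oxygen, and both pump protons across the inner mitochondrial membrane. Complex V, the ATP synthase, makes ATP as protons flow back through its membrane rotor. Several complex IV subunits exist as a form of heart and skeletal muscle and a form of liver and most other tissues, and the c subunit of the ATP synthase rotor is encoded by separate genes whose mature products are identical.

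The promoters of 4 members are shown, because Uqcrc1 and Uqcrfs1 were among the complex III subunits with a lower level in the mAktDKO mice, and because Atp5g1 and Atp5g2, which encode the same rotor subunit, had differences of opposite sign. The sequences are from RefSeq (GRCm38.p6, the assembly of mm10) and run from 250 bases before to 50 bases after the annotated start, in the direction of the gene. They lie at chr9:108936398-108936697 on the forward strand, chr13:30545267-30545566, chr11:96075582-96075881 and chr15:102670998-102671297, the latter 3 on the reverse strand. The gene positions given below come from the GENCODE annotation, whose starts can differ from those of RefSeq. The Atp5g2 stretch lies wholly inside the GENCODE span of that gene. Capitals mark the exact letters of a motif that was searched.
Uqcrc1: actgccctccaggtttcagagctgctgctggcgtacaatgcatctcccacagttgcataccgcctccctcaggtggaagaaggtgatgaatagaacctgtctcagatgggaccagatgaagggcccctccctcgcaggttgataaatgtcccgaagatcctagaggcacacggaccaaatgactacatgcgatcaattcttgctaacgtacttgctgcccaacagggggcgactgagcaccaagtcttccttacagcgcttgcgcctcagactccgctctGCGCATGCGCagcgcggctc
Uqcrfs1: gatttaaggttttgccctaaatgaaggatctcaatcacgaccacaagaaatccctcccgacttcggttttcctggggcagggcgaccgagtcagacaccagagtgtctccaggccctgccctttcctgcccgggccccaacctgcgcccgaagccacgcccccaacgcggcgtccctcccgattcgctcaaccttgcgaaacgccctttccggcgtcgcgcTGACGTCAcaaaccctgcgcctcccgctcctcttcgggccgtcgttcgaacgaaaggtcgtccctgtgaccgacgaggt
Atp5g1: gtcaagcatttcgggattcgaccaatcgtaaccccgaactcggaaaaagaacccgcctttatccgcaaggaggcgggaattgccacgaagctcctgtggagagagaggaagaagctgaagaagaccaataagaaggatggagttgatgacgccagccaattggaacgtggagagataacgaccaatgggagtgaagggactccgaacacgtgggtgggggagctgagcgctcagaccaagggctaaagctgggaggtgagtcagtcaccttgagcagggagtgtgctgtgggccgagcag
Atp5g2: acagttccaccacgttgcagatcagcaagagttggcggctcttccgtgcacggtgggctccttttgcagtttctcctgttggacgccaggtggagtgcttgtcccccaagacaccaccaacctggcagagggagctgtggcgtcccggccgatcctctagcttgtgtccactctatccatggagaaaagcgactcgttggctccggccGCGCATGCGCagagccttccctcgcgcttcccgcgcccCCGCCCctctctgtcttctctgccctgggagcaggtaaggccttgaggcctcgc
In Uqcrc1 the capitals are the 10 letters of the NRF1 motif, which start 31 bases after the start. In Uqcrfs1 they are the cAMP response element TGACGTCA, 29 bases before it. In Atp5g2 they are the NRF1 motif 42 bases before the start and the Sp1 motif GGGCGG, read on the other strand, 4 bases before it. The Atp5g1 promoter held none of the 6 motifs in this window.

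The motifs were searched on both strands in 53 promoters of 48 tested members and in all 32851 promoters of the reference table. NRF1 is a factor known to bind promoters of respiratory chain genes. Its letters were in 4 of the 53 member promoters (7.55%, against 0.971% of all promoters), those of Atp5g2, Atp5k, Cox6a1 and Uqcrc1. The YY1 letters AAGATGGC were in 6 (11.3%, against 2.75%), and the site of the estrogen-related receptors, AAGGTCA, was in 6 (11.3%, against 4.72%). The cAMP response element was in 3 (5.66%, against 1.79%), those of Cycs, Ttc19 and Uqcrfs1. The FoxO letters TGTTTAC were in 1, Cox7a2 (1.89%, against 3.65%). The Sp1 letters were in 25 (47.2%, against 35.7%). These matches describe the letters and were not tested as binding sites.

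The libraries held between 13738795 and 15445523 counts, and gene levels are given as CPM, counts relative to the library total after TMM scaling between mice. Differences are log2 fold changes, mAktDKO minus control, with their standard error (SE). A gene at 3 counts lay at 0.180 to 0.227 CPM, which covers counting error only. Akt2 was 51.3, 49.1 and 52.7 CPM in mAktDKO muscle and 172, 133 and 143 CPM in control muscle, a log2 difference of -1.55 (SE 0.11, edgeR adjusted p = 0.000923). Akt1 was 58.9, 56.8 and 51.4 CPM in mAktDKO muscle and 66.4, 65.5 and 66.5 CPM in control muscle, a log2 difference of -0.25 (SE 0.08, edgeR adjusted p = 0.115), and the counts cannot show the deleted exons alone. The fast fibre myosin Myh4 was between 47022 and 55567 CPM in the 6 mice and the slow fibre myosin Myh7 between 168 and 637 CPM, so the fast fibre identity of the muscle was present in all mice.

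At an unadjusted p under 0.05 in edgeR, 13.1% of all genes were lower and 11.4% higher, shares to set beside the marker counts below. The 8 listed fast fibre markers all had a negative log2 fold change (median -0.21, 0 at an adjusted p under 0.05 in edgeR, 2 at an unadjusted p under 0.05). Their summed level was 125055 to 138844 CPM in the mAktDKO mice and 142369 to 153090 CPM in the control mice, without overlap. Of the 7 slow fibre markers 6 had a higher mean (median log2 fold change 0.44, 2 of 7 at an unadjusted p under 0.05, sums of 680 to 1317 against 607 to 884 CPM). All 6 fibroblast markers had a higher mean (median 0.53, 3 at an unadjusted p under 0.05, sums of 18334 to 21775 against 7310 to 18434 CPM), as were all 6 macrophage markers (median 0.41, 2 at that p, 88.9 to 116 against 57.3 to 97.2 CPM) and all 5 adipocyte markers (median 0.88, 5 of 5 at that p, 178 to 310 against 153 to 204 CPM). Of the endothelial markers 4 of 6 had a higher mean (2 of 6 at that p, 413 to 487 against 343 to 447 CPM), of the mural markers 3 of 4 (1 of 4 at that p, 486 to 573 against 430.0 to 506 CPM), of the Schwann cell markers 4 of 4 (1 at that p, 234 to 319 against 213 to 251 CPM) and of the satellite cell markers 3 of 3 (1 at that p, 6.47 to 8.03 against 5.75 to 6.27 CPM). The 3 red blood cell markers had a higher mean, 1 of them at an adjusted p under 0.05 in edgeR (37.5 to 163 against 56.8 to 121 CPM). At that threshold 0.264% of all genes were higher. The lymphocyte markers Cd3e and Cd79a summed to at most 0.180 CPM in any mouse. These lists move in the same comparison as the respiratory genes below, and their part in the results was not tested. In such bulk RNA, fewer cells of a type and less RNA per cell cannot be told apart.

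Most genes of complexes III, IV and V had a lower mean level in the mAktDKO mice. Of the 62 tested members 54 had a negative and 8 a positive log2 fold change, with a median of -0.31, against 47.5% negative and a median of 0.02 over all 12892 genes. With library totals in place of TMM scaling 48 were negative and 14 positive, and with scaling to the 8 fast fibre genes, chosen after the data were seen, 47 and 15. The 3 mAktDKO values were all below the 3 control values for 44 members (16.6% of all genes), all above them for 1 member, Atp5g2 (14.6% of all genes), and for 17 the groups overlapped. The members' share of all counts was 1.08 ± 0.048% in the mAktDKO mice and 1.23 ± 0.083% in the control mice (SD, n = 3 each).

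At an adjusted p under 0.05 (edgeR's quasi-likelihood test, Benjamini-Hochberg over all genes), 9 members were lower and 0 higher, where 0.915% of all genes were lower and 0.264% higher. The 9 were Uqcrc1, Uqcrq, Uqcrh and Uqcrfs1 of complex III, Cox4i1 of complex IV, its copper chaperone Cox17, and Atp5h, Atp5j2 and Atp5e of ATP synthase. At an adjusted p under 0.01, 0 members passed in edgeR (0.0233% of all genes did), 41 were lower and 1 higher at an unadjusted p under 0.05 (13.1% and 11.4% of all genes), and DESeq2's Wald test, the tool with which the study applied this threshold, placed 13 members lower and 0 higher at an adjusted p under 0.01 (1.13% and 0.351% of the 17357 genes it tested). With 1 mouse left out the count of 9 was 0 without any one of the mAktDKO mice 1, 2 and 3 or control mouse 3, 5 without control mouse 2, and 16, with the 9 among them, without control mouse 4.

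**Figure D1:**
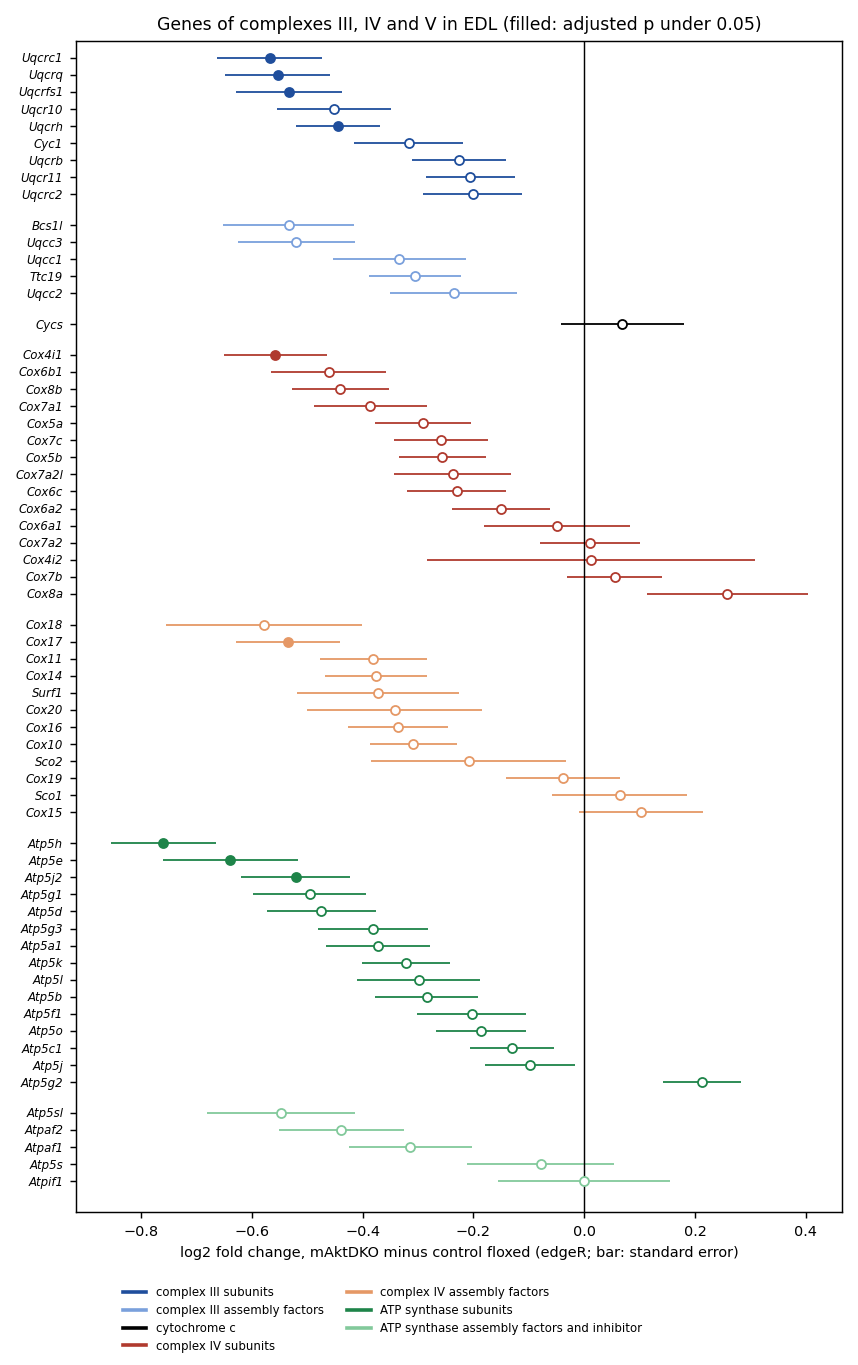
Log2 fold change of each of the 62 tested members, mAktDKO minus control floxed, on the horizontal axis, with bars for the standard error and filled points for an adjusted p under 0.05 (edgeR). The 9 subunits of complex III all lie below 0, and 8 of the 62 members lie above 0, of which Cox8a and Atp5g2 lie highest.

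Complex III was the most uniform of the 3 complexes. All 9 of its subunits had a negative log2 fold change, from -0.57 to -0.20 with a median of -0.44, and in each of the 9 the 3 mAktDKO values were all below the control values. The summed level of the subunits was 1756, 1634 and 1737 CPM in mAktDKO muscle and 2356, 2403 and 2068 CPM in control muscle, a ratio of the means of 0.751.

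Of the core proteins, which face the matrix, Uqcrc1 (chr9:108936633-108949623) was 439, 389.8 and 430.1 CPM in mAktDKO muscle and 659, 642 and 564 CPM in control muscle, with means of 419.6 ± 26.2 CPM against 622 ± 50.7 CPM (SD, n = 3 each). The groups were well apart, with a log2 difference of -0.57 (SE 0.095, edgeR adjusted p = 0.0396), and with each mouse left out in turn the adjusted p ran from 0.0376 to 0.22. Its partner Uqcrc2 (chr7:120635176-120659524) was 327, 329.8 and 329 CPM in mAktDKO muscle and 382, 410.4 and 341 CPM in control muscle. It had the smallest difference of the complex, a log2 difference of -0.20 (SE 0.089, edgeR adjusted p = 0.204), and its 3 mAktDKO mice lay within 3 CPM of each other, just below control mouse 4.

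Of the subunits that carry electrons, Uqcrfs1 (chr13:30540308-30545362), the Rieske iron-sulfur protein, was 294, 259.9 and 284 CPM in mAktDKO muscle and 420.3, 429 and 363 CPM in control muscle. It had a log2 difference of -0.53 (SE 0.095, edgeR adjusted p = 0.0474), and with each mouse left out the adjusted p ran from 0.0376 to 0.227. Cyc1 (chr15:76343523-76346260), which encodes cytochrome c1, was 218, 209 and 209 CPM in mAktDKO muscle and 266, 294 and 231 CPM in control muscle. Its log2 difference of -0.32 (SE 0.099, edgeR adjusted p = 0.108) did not pass the threshold, although the groups did not overlap.

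The small subunits had 2 members past the threshold in edgeR. Uqcrq (chr11:53427922-53430831), a ubiquinone-binding protein of the complex, was 79.4, 70.2 and 76.9 CPM in mAktDKO muscle and 119.6, 114 and 98.8 CPM in control muscle, a log2 difference of -0.55 (SE 0.095, edgeR adjusted p = 0.0439), and its adjusted p ran from 0.0361 to 0.22 with each mouse left out. Uqcrh (chr4:116066965-116075071), the hinge protein between cytochrome c1 and cytochrome c, was 121, 112 and 120.3 CPM in mAktDKO muscle and 165, 163 and 152 CPM in control muscle, a log2 difference of -0.44 (SE 0.076, edgeR adjusted p = 0.0446), with 0.0405 to 0.224 over the same fits. For both genes the lowest control mouse lay above the highest mAktDKO mouse by at least 19 CPM. Uqcr10 was at -0.45 (adjusted p = 0.0602), Uqcrb at -0.23 (adjusted p = 0.152) and Uqcr11 at -0.21 (adjusted p = 0.163), log2 fold changes that did not pass in edgeR.

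The 5 assembly factors of complex III had log2 fold changes of -0.53 to -0.24, and 0 of them passed the threshold in edgeR (4 at an unadjusted p under 0.05). Uqcc3 (chr19:8880014-8880923), which acts early in the assembly of the cytochrome b core, was 10.3, 11.4 and 10.1 CPM in mAktDKO muscle and 16.1, 15.03 and 14.5 CPM in control muscle, a log2 difference of -0.52 (SE 0.11, edgeR adjusted p = 0.0531). Bcs1l (chr1:74588289-74592443), the ATPase that carries the Rieske protein into the complex, was 9.70, 10.3 and 9.53 CPM in mAktDKO muscle and 14.8, 15.5 and 12.5 CPM in control muscle, a log2 difference of -0.53 (SE 0.12, edgeR adjusted p = 0.0585). In both genes the groups stood apart at these low levels, and both passed 0.05 in edgeR without the filter on low counts (adjusted p = 0.0427 and 0.0476). Uqcc3 also passed 0.05 with DESeq2's Wald test (adjusted p = 0.0496) and in edgeR with at least 10 counts in every mouse (adjusted p = 0.0489). Bcs1l passed in edgeR without control mouse 4 (adjusted p = 0.0418). Ttc19 (chr11:62281473-62328451), which clears fragments of the Rieske protein, was 34.4, 34.9 and 34.6 CPM in mAktDKO muscle and 43.1, 45.4 and 39.8 CPM in control muscle, a log2 difference of -0.31 (SE 0.082, edgeR adjusted p = 0.0824), and the mAktDKO mice spanned less than 1 CPM. Uqcc1 and Uqcc2, which act together on cytochrome b, were at -0.33 (adjusted p = 0.141) and -0.24 (adjusted p = 0.24), and their groups overlapped.

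Cytochrome c carries electrons between complexes III and IV. Cycs (chr6:50562563-50566538), its somatic gene, was 267, 274 and 278 CPM in mAktDKO muscle and 236, 307 and 238 CPM in control muscle. The groups overlapped, with a log2 difference of 0.07 (SE 0.11, edgeR adjusted p = 0.732), and its log2 difference ran from 0.0012 without control mouse 2 to 0.20 without control mouse 3. Whether Cycs differs from the subunits of the complexes was not tested.

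**Figure D2:**
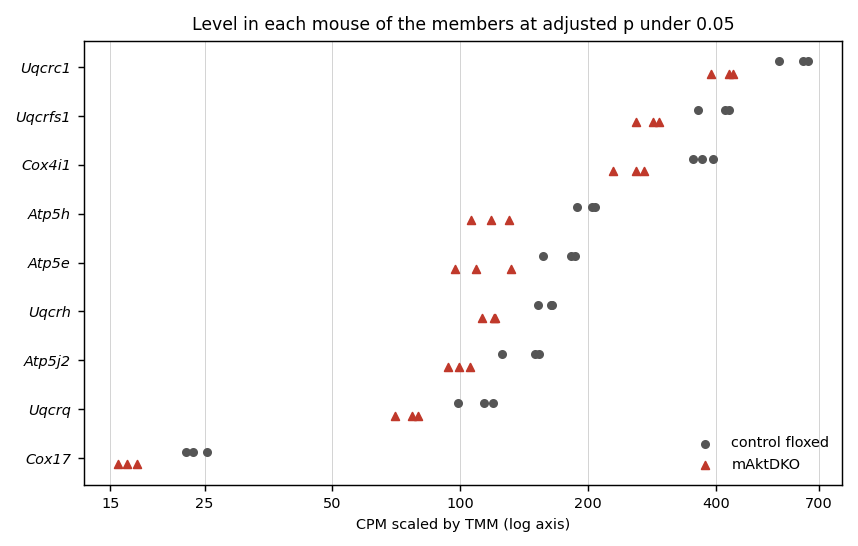
Level of the 9 members at an adjusted p under 0.05 in each mouse, in CPM scaled by TMM on a log axis, with triangles for mAktDKO mice and circles for control floxed mice. In each of the 9 the mAktDKO mice lie below the control mice, from Cox17 at 15.6 to 25.3 CPM to Uqcrc1 at 389.8 to 659 CPM.

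Complex IV was less uniform. Of its 15 tested subunits 11 had a negative and 4 a positive log2 fold change, from -0.56 to 0.26 with a median of -0.24. For 8 subunits all mAktDKO values were below all control values, and for the other 7 the groups overlapped. The summed level was 1922, 1811 and 1968 CPM in mAktDKO muscle and 2385, 2421 and 2174 CPM in control muscle.

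Cox4i1 (chr8:120668222-120674207), the common form of the largest nuclear-encoded subunit, was 271, 229 and 259 CPM in mAktDKO muscle and 394, 370.4 and 353 CPM in control muscle, with means of 253 ± 21.8 CPM against 372 ± 20.8 CPM (SD, n = 3 each). In the edgeR fit it was the only subunit of the complex past the threshold, with a log2 difference of -0.56 (SE 0.093, edgeR adjusted p = 0.0396) and 0.0376 to 0.22 with each mouse left out. Cox6b1 (chr7:30616861-30626151), a subunit on the side where cytochrome c docks, was 161, 135 and 153 CPM in mAktDKO muscle and 223, 214 and 183 CPM in control muscle, a log2 difference of -0.46 (SE 0.10, edgeR adjusted p = 0.0598). DESeq2's Wald test placed Cox6b1 (adjusted p = 0.00532), Cox8b (adjusted p = 0.00313) and Cox7a1 (adjusted p = 0.0353) past it as well, and edgeR without the filter on low counts Cox6b1 and Cox8b. Without control mouse 4, Cox6b1 (adjusted p = 0.0423) and Cox8b (adjusted p = 0.0486) passed in edgeR. With at least 10 counts in every mouse Cox8b passed in edgeR too (adjusted p = 0.0456). The lowest control mouse of Cox6b1, number 4, lay above all mAktDKO mice. Cox5a was at -0.29 (adjusted p = 0.1), Cox5b at -0.26 (adjusted p = 0.105), Cox7c at -0.26 (adjusted p = 0.123) and Cox6c at -0.23 (adjusted p = 0.163). These 4 common subunits had differences about as large as the median of all members or smaller, and none passed in edgeR. Cox7a2l, known as a supercomplex assembly factor, was at -0.24 (adjusted p = 0.205) and overlapped between the groups. Cox7b (chrX:106015700-106022450) was 117, 115 and 119.6 CPM in mAktDKO muscle and 107, 125 and 107 CPM in control muscle, a log2 difference of 0.05 (SE 0.086, edgeR adjusted p = 0.722), and the mAktDKO mice lay inside the range of the control mice. The log2 difference of Cox7b was 0.0145 without control mouse 2, 0.13 without control mouse 3 and 0.19 with library totals. For Cox7c part of the estimated counts was fractional in all 6 mice, so reads were divided with similar sequences.

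The tissue isoforms of complex IV were compared form by form, and of these genes only Cox4i1 passed in the edgeR fit. Cox8b (chr7:140898945-140900446), the heart and muscle form of subunit 8, was 111, 100.2 and 113 CPM in mAktDKO muscle and 158, 143 and 139 CPM in control muscle, a log2 difference of -0.44 (SE 0.087, edgeR adjusted p = 0.0506). Cox8a (chr19:7215153-7217616), the common form, was 21.5, 23.6 and 18.2 CPM in mAktDKO muscle and 17.3, 20.8 and 14.8 CPM in control muscle, a log2 difference of 0.26 (SE 0.15, edgeR adjusted p = 0.298). The muscle form had no overlap between the groups, and the common form overlapped, with control mouse 3 above mAktDKO mouse 3. The log2 difference of Cox8a was 0.15 without control mouse 4 and 0.39 without control mouse 3.

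Cox7a1 (chr7:30184144-30186078), the muscle form of subunit 7a, was 89.7, 82.97 and 102 CPM in mAktDKO muscle and 120.1, 129.6 and 109 CPM in control muscle, a log2 difference of -0.39 (SE 0.10, edgeR adjusted p = 0.0791). Cox7a2 (chr9:79755361-79759878), the form of most tissues, was 53.6, 55.1 and 53.6 CPM in mAktDKO muscle and 50.1, 59.97 and 50.96 CPM in control muscle, a log2 difference of 0.01 (SE 0.09, edgeR adjusted p = 0.956), and its sign turned without mAktDKO mouse 2, control mouse 2 or control mouse 4. Again the muscle form stood apart between the groups and the common form did not.

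Cox6a2 (chr7:128205435-128206387), the muscle form of subunit 6a, was 270.3, 290.4 and 303 CPM in mAktDKO muscle and 343, 318 and 298 CPM in control muscle, a log2 difference of -0.15 (SE 0.088, edgeR adjusted p = 0.314) that turned to 0.022 when scaled to the fast fibre genes. Cox6a1 (chr5:115345642-115348981), the common form, was 13.5, 16.2 and 11.6 CPM in mAktDKO muscle and 14.4, 14.3 and 14.1 CPM in control muscle, a log2 difference of -0.05 (SE 0.13, edgeR adjusted p = 0.843) that turned to 0.095 with library totals and to 0.13 with the fast fibre scaling. Both members of this pair overlapped between the groups. Cox4i2 (chr2:152754173-152765037), the form of lung and of low oxygen, was 1.78, 1.44 and 1.03 CPM in mAktDKO muscle and 1.26, 1.60 and 1.36 CPM in control muscle, with a log2 difference of 0.01 (SE 0.30, edgeR adjusted p = 0.986). At this level its standard error is too large to show a difference of the size seen in other subunits.

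The ratio of 2 isoforms within a mouse does not depend on the scaling between mice. With 3 mice against 3 the two-sided exact permutation test cannot go below p = 0.1, and 7 pairs were compared. The raw p-values were 0.1 for 5 pairs, 0.2 for 1 and 0.6 for 1, so that no pair could pass 0.05 before or after adjustment over the 7.

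The count ratio Cox8b/Cox8a was 5.18, 4.25 and 6.21 in the mAktDKO mice and 9.14, 6.87 and 9.36 in the control mice, or 2.36 ± 0.27 against 3.06 ± 0.25 on the log2 scale (SD, n = 3 each). The difference was -0.70 (log2, exact permutation p = 0.1), and all mAktDKO mice were lower. The ratio Cox7a1/Cox7a2 was 1.67, 1.51 and 1.91 in the mAktDKO mice and 2.40, 2.16 and 2.15 in the control mice, or 0.76 ± 0.17 against 1.16 ± 0.09 on the log2 scale (SD, n = 3 each). It differed by -0.40 (log2, exact permutation p = 0.1), again without overlap. In both pairs the muscle form made up a smaller part of the pair in the mAktDKO mice, 83.6% against 89.3% of the counts for Cox8b and 62.8% against 69.1% for Cox7a1, as means of 3 mice. The ratio Cox6a2/Cox6a1 was 20.01, 17.96 and 26.2 in the mAktDKO mice and 23.8, 22.2 and 21.2 in the control mice, a difference of -0.08 (log2, exact permutation p = 0.6), which was 0.031 without mAktDKO mouse 2. The third muscle form therefore showed no separation of the groups. The ratio Cox4i2/Cox4i1 was 0.00654, 0.00628 and 0.00397 in the mAktDKO mice and 0.00319, 0.00433 and 0.00386 in the control mice, a difference of 0.53 (log2, exact permutation p = 0.2) with overlap at mAktDKO mouse 3. Cox6b2, Cox7b2 and Cox8c, forms known from testis, did not pass the filter. Cox7b2 and Cox8c had 0 counts in all 6 mice, and Cox6b2 had between 0 and 0.317 CPM.

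**Figure D3:**
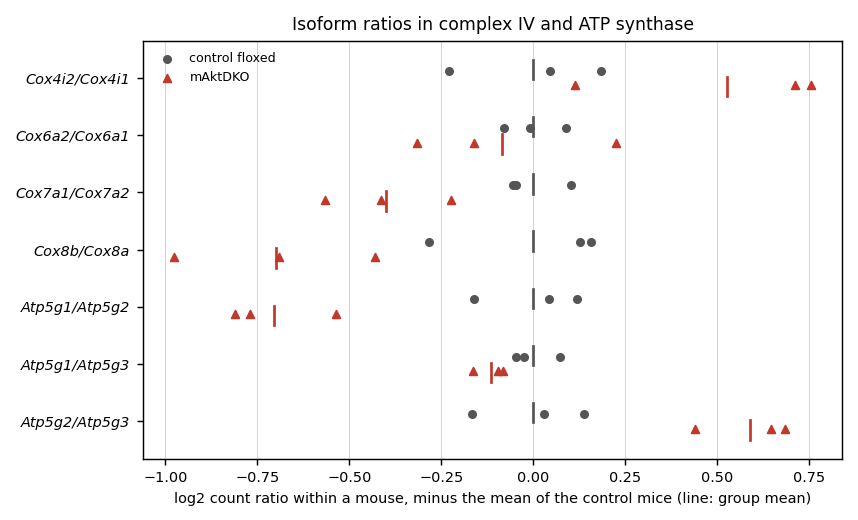
Log2 count ratio of 7 isoform pairs in each mouse, minus the mean of the control mice, with triangles for mAktDKO mice, circles for control floxed mice and short lines for group means. The pairs Cox7a1/Cox7a2, Cox8b/Cox8a, Atp5g1/Atp5g2 and Atp5g1/Atp5g3 are lower and Atp5g2/Atp5g3 is higher in all mAktDKO mice, and the pairs Cox4i2/Cox4i1 and Cox6a2/Cox6a1 overlap.

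Levels per length place the isoforms in order. Divided by the length of the principal transcript, the control means were 470.1 CPM per kb for Cox6a2 and 24.96 for Cox6a1, 407 for Cox8b and 32.1 for Cox8a, and 305 for Cox7a1 and 81.5 for Cox7a2. The muscle form was thus the more abundant of each pair in both groups. Cox4i1 was at 499.9 and Cox4i2 at 1.94 CPM per kb, the lowest of the 62. The highest were Atp5b at 1257 and Atp5a1 at 872 CPM per kb, the catalytic pair of ATP synthase.

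Among the 12 assembly factors of complex IV, 10 had a negative log2 fold change (median -0.34), 8 without overlap of the groups, and 1 passed the threshold. Cox17 (chr16:38346991-38352763), the chaperone that brings copper to the other copper factors of the intermembrane space, was 16.4, 15.6 and 17.3 CPM in mAktDKO muscle and 25.3, 23.5 and 22.6 CPM in control muscle. The lowest control mouse exceeded the highest mAktDKO mouse by more than 5 CPM, with a log2 difference of -0.53 (SE 0.094, edgeR adjusted p = 0.0474) and 0.0395 to 0.22 with each mouse left out. Of the factors that receive copper from it, none passed in edgeR. Cox11 (chr11:90638173-90644931) was 20.1, 17.3 and 17.8 CPM in mAktDKO muscle and 22.9, 25.02 and 23.97 CPM in control muscle, a log2 difference of -0.38 (SE 0.097, edgeR adjusted p = 0.0733). Sco1 was at 0.06 (adjusted p = 0.774) and Sco2, whose counts were partly fractional in all 6 mice, at -0.21 (adjusted p = 0.484), both with overlap. Cox19, another copper factor, was at -0.04 (adjusted p = 0.841), overlapped too, and was positive with library totals (0.10) and the fast fibre scaling (0.14).

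Neither gene of heme A synthesis passed in edgeR. Cox10 (chr11:63962627-64079468), which farnesylates heme B, was 28.98, 29.4 and 27.6 CPM in mAktDKO muscle and 35.1, 36.4 and 35.1 CPM in control muscle, a log2 difference of -0.31 (SE 0.079, edgeR adjusted p = 0.0733). Cox15 (chr19:43733254-43753000), which carries out the next oxidation, was 31.9, 30.97 and 29.2 CPM in mAktDKO muscle and 26.2, 33.3 and 26.2 CPM in control muscle, a log2 difference of 0.10 (SE 0.11, edgeR adjusted p = 0.592). The log2 difference of Cox15 was 0.042 without control mouse 2 and 0.225 without control mouse 3. The groups of Cox10 stood apart and those of Cox15 overlapped, and the difference between the genes was not tested. Cox14 (chr15:99725618-99728136), which acts on the newly made Cox1 protein, was 30.4, 25.3 and 26.9 CPM in mAktDKO muscle and 36.6, 35.5 and 35.1 CPM in control muscle, a log2 difference of -0.38 (SE 0.093, edgeR adjusted p = 0.0691). Of the other factors, Cox18 was at -0.58 (adjusted p = 0.104), Surf1 at -0.37 (adjusted p = 0.166), Cox20 at -0.34 (adjusted p = 0.217) and Cox16, with fractional counts in all mice, at -0.34 (adjusted p = 0.0824). These 4 had negative log2 fold changes without overlap of the groups and did not pass in edgeR.

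ATP synthase had the largest single difference. Of its 15 subunits 14 had a negative log2 fold change and 1 a positive one, from -0.76 to 0.21 with a median of -0.32. For 13 of them the mAktDKO values were all below the control values. The summed level was 6177, 5763 and 6138 CPM in mAktDKO muscle and 7805, 7862 and 6967 CPM in control muscle.

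In the peripheral stalk, which holds the catalytic head still, Atp5h (chr11:115415689-115419962) encodes subunit d. It was 130.2, 106 and 118 CPM in mAktDKO muscle and 204, 208 and 189 CPM in control muscle, with means of 118 ± 12.1 CPM against 200.2 ± 10.02 CPM (SD, n = 3 each). Its log2 difference of -0.76 (SE 0.095, edgeR adjusted p = 0.018) was the largest decrease of the 62 members, and the adjusted p ran from 0.0139 to 0.119 with each mouse left out. The other stalk genes did not pass in edgeR. Atp5f1 (subunit b) was at -0.20 (adjusted p = 0.239), Atp5o (the oligomycin sensitivity protein) at -0.19 (adjusted p = 0.199) and Atp5j (coupling factor 6) at -0.10 (adjusted p = 0.475), which was positive with library totals (0.040) and the fast fibre scaling (0.075). Whether Atp5h differs from these was not tested.

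The 5 subunits of the catalytic F1 head had log2 fold changes of -0.64 to -0.13 without overlap of the groups, and 1 of them passed in edgeR. Atp5e (chr2:174461072-174464105), the epsilon subunit of the central stalk, was 131, 97.2 and 109 CPM in mAktDKO muscle and 187, 182 and 157 CPM in control muscle, a log2 difference of -0.64 (SE 0.12, edgeR adjusted p = 0.0482) with 0.038 to 0.228 with each mouse left out. Its mAktDKO mouse 1 was the closest to the controls. Atp5d (delta) was at -0.47 (adjusted p = 0.0539), Atp5a1 (alpha) at -0.37 (adjusted p = 0.0714), Atp5b (beta) at -0.28 (adjusted p = 0.119) and Atp5c1 (gamma) at -0.13 (adjusted p = 0.306), which was positive with library totals (0.0073) and the fast fibre scaling (0.043). With DESeq2's Wald test Atp5d (adjusted p = 0.00193), Atp5a1 (adjusted p = 0.00465) and Atp5b (adjusted p = 0.0476) passed 0.05 as well. The catalytic beta subunit, the most abundant member, was 1994, 1885 and 2056 CPM in mAktDKO muscle and 2519.6, 2467 and 2241 CPM in control muscle, without overlap.

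Of the 3 small membrane subunits 1 passed. Atp5j2 (chr5:145183698-145192062), subunit f, was 106, 93.7 and 99.2 CPM in mAktDKO muscle and 150.2, 153 and 125 CPM in control muscle, a log2 difference of -0.52 (SE 0.098, edgeR adjusted p = 0.0474) with 0.0361 to 0.234 with each mouse left out. Its control mice 2 and 3 lay far above all mAktDKO mice, and control mouse 4 lay between them. Atp5k (subunit e) was at -0.32 (adjusted p = 0.0691) and Atp5l (subunit g) at -0.30 (adjusted p = 0.149), with mAktDKO mouse 3 and control mouse 4 within 1 CPM of each other for Atp5l.

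The c-ring genes did not share a direction. Atp5g1 (chr11:96068852-96075670) was 219, 188 and 194 CPM in mAktDKO muscle and 297, 301 and 249.8 CPM in control muscle, a log2 difference of -0.50 (SE 0.10, edgeR adjusted p = 0.0539). Atp5g3 (chr2:73908447-73911326) was 354, 319 and 312 CPM in mAktDKO muscle and 427, 471 and 385 CPM in control muscle, a log2 difference of -0.38 (SE 0.10, edgeR adjusted p = 0.0765). Atp5g2 (chr15:102662864-102672352) was 90.2, 93.7 and 94.1 CPM in mAktDKO muscle and 81.9, 78.7 and 79.4 CPM in control muscle, a log2 difference of 0.21 (SE 0.071, edgeR adjusted p = 0.125). Atp5g1 and Atp5g3 were lower and Atp5g2 was higher in every mAktDKO mouse, and none of them passed the threshold of 0.05 in the edgeR fit with all mice and the filter. Atp5g1 passed in edgeR without the filter on low counts (adjusted p = 0.0346), with at least 10 counts in every mouse (adjusted p = 0.0489) and without control mouse 4 (adjusted p = 0.0376). DESeq2 placed Atp5g1 (adjusted p = 0.00115) and Atp5g3 (adjusted p = 0.0151) past it. Over the 13 alternative settings the log2 fold change of Atp5g2 ran from 0.19 to 0.38 and its adjusted p from 0.0453, under the fast fibre scaling, to 0.358.

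The count ratio Atp5g1/Atp5g2 was 2.43, 2.01 and 2.06 in the mAktDKO mice and 3.63, 3.82 and 3.15 in the control mice, a difference of -0.70 (log2, exact permutation p = 0.1). The ratio Atp5g2/Atp5g3 was 0.255, 0.294 and 0.302 in the mAktDKO mice and 0.192, 0.167 and 0.206 in the control mice, a difference of 0.59 (log2, exact permutation p = 0.1). The ratio Atp5g1/Atp5g3 was 0.619, 0.59 and 0.624 in the mAktDKO mice and 0.695, 0.64 and 0.649 in the control mice, a smaller difference of -0.11 (log2, exact permutation p = 0.1). Of the counts of the 3 genes, Atp5g2 held 13.6%, 15.6% and 15.7% in the mAktDKO mice and 10.2%, 9.26% and 11.1% in the control mice. Its share was 14.96 ± 1.18% against 10.2 ± 0.93%, that of Atp5g1 32.2 ± 0.87% against 35.7 ± 0.96% and that of Atp5g3 52.8 ± 0.77% against 54.1 ± 1.18% (SD, n = 3 each). These are shares of counts and not of transcripts, since the 3 transcripts differ in length.

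Of the assembly factors and regulators named with ATP synthase, Atpaf2 (chr11:60400626-60418457), a chaperone of the alpha subunit, was 12.6, 13.2 and 13.3 CPM in mAktDKO muscle and 19.7, 17.7 and 15.6 CPM in control muscle, a log2 difference of -0.44 (SE 0.11, edgeR adjusted p = 0.0752). Atpaf1 (chr4:115784812-115818828), which chaperones the beta subunit, was 32.1, 29.1 and 27.3 CPM in mAktDKO muscle and 36.6, 41.1 and 32.3 CPM in control muscle, a log2 difference of -0.31 (SE 0.11, edgeR adjusted p = 0.138). Both were below the control mice in every mAktDKO mouse and did not pass. Atp5sl (chr7:25619414-25625551), which carries the symbol but is known to act in the assembly of complex I, was 15.7, 13.9 and 14.5 CPM in mAktDKO muscle and 25.3, 21.2 and 17.99 CPM in control muscle, a log2 difference of -0.55 (SE 0.13, edgeR adjusted p = 0.0691), and it passed with DESeq2 (adjusted p = 0.0362). It also passed in edgeR without control mouse 4 (adjusted p = 0.0389). Atpif1 (chr4:132530555-132533659), the inhibitor of ATP hydrolysis by the enzyme, was 9.38, 7.13 and 6.93 CPM in mAktDKO muscle and 8.46, 7.81 and 7.18 CPM in control muscle, with overlap and an adjusted p of 0.997 in edgeR, and the sign of its difference was positive with library totals, upper-quartile scaling and the fast fibre scaling. Atp5s was at -0.08 (adjusted p = 0.741), with overlap, and was positive with library totals (0.060) and the fast fibre scaling (0.096).

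Other genes of the same pathway lie outside these symbols. Of 21 listed 19 were tested and 18 had a negative log2 fold change (median -0.28). All mAktDKO values were below the control values for 13 (16.6% of all genes), and 1 passed as lower in edgeR (0.915% of all genes). That gene was Lrpprc, which stabilises mitochondrial mRNA, at 114, 110.5 and 115 CPM in mAktDKO muscle and 169, 158 and 140.1 CPM in control muscle, a log2 difference of -0.46 (SE 0.088, edgeR adjusted p = 0.0482). The membrane subunit of ATP synthase listed as 2010107E04Rik was at -0.50 (adjusted p = 0.0506), and Coa7, a complex IV assembly factor, at -0.54 (adjusted p = 0.0602).

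Other mitochondrial families are set beside the medians of -0.44 for complex III, -0.24 for complex IV and -0.32 for ATP synthase. The median log2 fold change was -0.39 for 36 complex I subunits (35 negative, 10 past the threshold), -0.29 for 4 complex II subunits (4 negative, 0 past the threshold in edgeR, 3 at an unadjusted p under 0.05) and -0.27 for 77 mitochondrial ribosomal proteins (69 negative, 2 past the threshold). Over all genes 0.915% were lower at an adjusted p under 0.05 in edgeR, and 13.1% were lower at an unadjusted p under 0.05. In complex I the smallest p belonged to Ndufb5 at -0.65 (adjusted p = 0.0326), Ndufb2 at -0.58 (adjusted p = 0.0394) and Ndufa8 at -0.64 (adjusted p = 0.0394). In complex II Sdhb was at -0.46 (adjusted p = 0.0598), Sdhc at -0.34 (adjusted p = 0.101) and Sdha at -0.25 (adjusted p = 0.149), and among the ribosomal proteins Mrps26 was at -0.69 (adjusted p = 0.0396), Mrpl2 at -0.55 (adjusted p = 0.0466) and Mrpl28 at -0.58 (adjusted p = 0.052) (log2 fold changes, edgeR). Whether the families differ from each other was not tested.

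The listed regulators of mitochondrial biogenesis did not move as one. Of the 7, 3 were negative and 4 positive. Esrra, the estrogen-related receptor alpha, which drives genes of oxidative phosphorylation, was 53.1, 46.96 and 46.01 CPM in mAktDKO muscle and 86.2, 72.6 and 68.7 CPM in control muscle, a log2 difference of -0.64 (SE 0.11, edgeR adjusted p = 0.0396). Ppargc1b was at -0.43 (adjusted p = 0.0598), Tfam at -0.28 (adjusted p = 0.133) and Yy1 at 0.24 (adjusted p = 0.13) (log2 fold changes, edgeR). None of these passed the threshold, and their groups did not overlap. Ppargc1a was at 0.24 (adjusted p = 0.382), Nrf1 at 0.31 (adjusted p = 0.227) and Gabpa at 0.06 (adjusted p = 0.699) in edgeR, with overlap. The mean log2 CPM of the 7 was 5.09, 5.01 and 5.14 in mAktDKO muscle and 5.21, 5.19 and 5.07 in control muscle, with overlap.

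**Figure D4:**
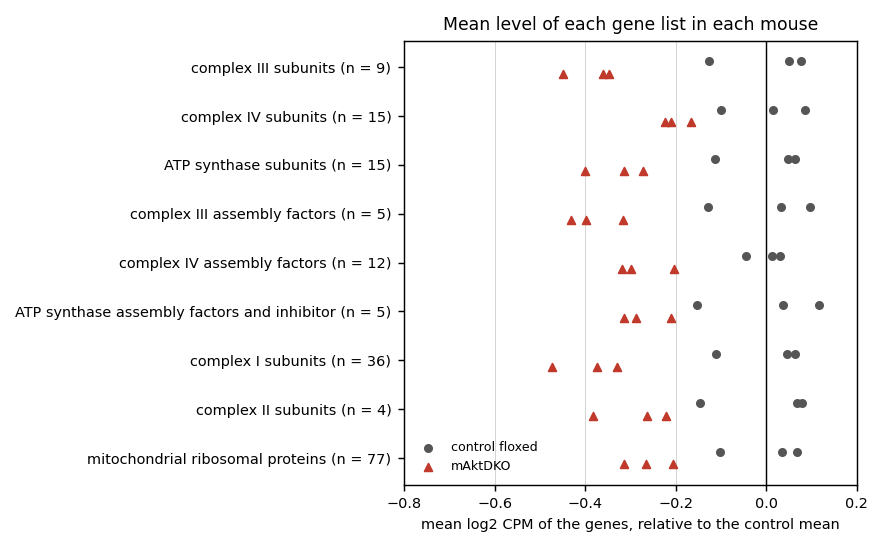
Mean log2 CPM of the genes of each list in each mouse, relative to the mean of the control mice, with triangles for mAktDKO mice and circles for control floxed mice. In the 9 lists drawn (subunits and assembly factors of complexes III, IV and V, subunits of complexes I and II, and mitochondrial ribosomal proteins) the mAktDKO mice lie below the control mice, and control mouse 4 is the lowest of the controls.

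The mice can be set side by side on the means of the lists. The mean log2 CPM of the complex III subunits was 7.30, 7.20 and 7.29 in the mAktDKO mice and 7.70, 7.72 and 7.52 in the control mice. For complex IV it was 6.30, 6.24 and 6.25 against 6.48, 6.55 and 6.36, and for ATP synthase 7.86, 7.73 and 7.82 against 8.18, 8.20 and 8.02. Control mouse 4 was the lowest control and mAktDKO mouse 2 the lowest mouse of all in each of the 3 complexes.

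Most members are short transcripts, and short genes tended to be lower in this comparison. The median transcript length was 898 bases for the members and 3005 bases for all tested genes. The other genes here leave out the members, complex II subunits, mitochondrial ribosomal proteins and every gene whose symbol starts with Nduf. Their median log2 fold change was -0.05 under 600 bases, -0.13 from 600 to 1000, -0.07 from 1000 to 2000, 0.02 from 2000 to 4000 and 0.08 from 4000 bases on. The members' medians in the same bins were -0.26 (19 genes), -0.38 (14), -0.32 (17), -0.31 (10) and -0.20 (2), lower than the other genes by 0.21 to 0.33. All 5 bins hold under 20 members. The last holds Cox15 (4798 bases) and Atp5g1 (4715 bases, against 441 for Atp5g2 and 714 for Atp5g3). Lengths are those of 1 annotated transcript per gene, and which transcript the muscle expresses was not tested. A trend over length was also fitted as a curve over all genes with a length, the members among them. With it removed, the medians were -0.25 for complex III, -0.075 for complex IV, -0.22 for ATP synthase and -0.29 for the assembly factors. How much of the differences goes with length was not tested.

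**Figure D5:**
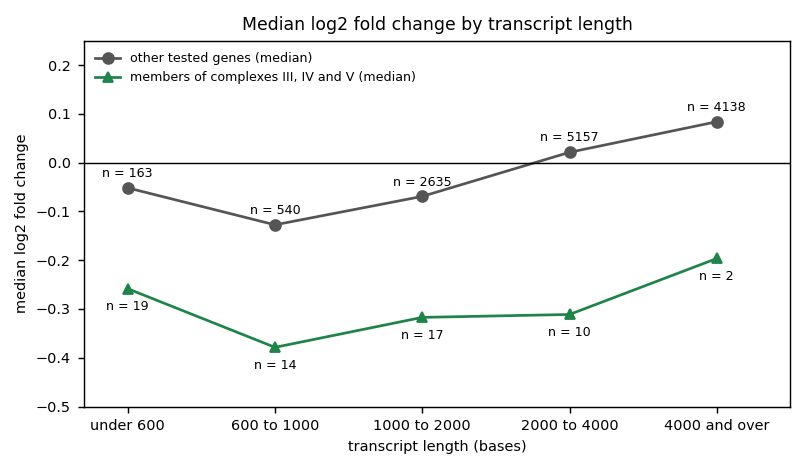
Median log2 fold change (mAktDKO minus control floxed) by transcript length in bases, with triangles for members of complexes III, IV and V and circles for the other tested genes, and the number of genes at each point. The other genes leave out genes whose symbol starts with Nduf, complex II subunits and mitochondrial ribosomal proteins. The members lie below the other genes in all 5 bins, by 0.21 to 0.33, and the last bin holds only 2 members, Cox15 and Atp5g1, placed there by annotated length.

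The size of the decrease also moved with the scaling between mice. Scaled by library totals instead of TMM, the median over all genes rose from 0.02 to 0.16, and with the fast fibre scaling it rose to 0.19. The medians for complexes III, IV and V were then -0.31, -0.097 and -0.18, and -0.27, -0.062 and -0.15. A change of scaling shifts every gene by about the same amount, so the medians relative to all genes, -0.46, -0.25 and -0.34, are fixed by construction. With library totals 3 members were lower and 0 higher at an adjusted p under 0.05 in edgeR. With the fast fibre scaling 5 were lower and 1, Atp5g2, was higher.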

How the data were processed

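The authors sequenced EDL RNA of 3 mAktDKO and 3 control floxed mice, after removal of rRNA, in stranded libraries read from both ends at 37 bp. Per the labels and the processing notes, the authors demultiplexed with bcl2fastq, mapped to mm10 with STAR and used RSEM 1.3.1 to quantify genes. The notes give STAR 2.6.1b, and the study's methods name another release. The deposited values are expected counts (estimated counts) for 24411 gene symbols, not scaled between mice, and 0 columns were left unused. RSEM divides reads that fit several genes, and 3.36% to 4.09% of a mouse's values were not whole.

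Here the counts were rounded, filtered with filterByExpr (minimum count 10) and scaled by TMM. The test was edgeR's quasi-likelihood test (edgeR 4.0.16, R 4.3.3), with Benjamini-Hochberg adjustment over 12892 genes. Thresholds were adjusted p under 0.01, which the study's methods apply with DESeq2 beside a q-value limit that was not applied here, and under 0.05. A standard error is the log2 fold change divided by the square root of F, and log2 CPM uses a prior count of 2. Isoform ratios were compared by two-sided exact permutation. DESeq2 1.42.0, the study's tool in another release, was an alternative. The steps were tested on simulated counts. Positions and transcript lengths come from the GENCODE annotation of mm10 (23376 symbols matched directly, 669 through older names), with lengths for 99.5% of the tested genes.

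The named genes, by rule, are Akt1, Akt2, members at an adjusted p under 0.05, the 4 with the smallest p and the 1 with the highest log2 fold change in each list, isoform pairs and Cycs, and in lists outside the members the 3 with the smallest p. Values by mouse are given for most of them, and those of Cyc1 and Atp5b were added after they were seen. The remaining members and biogenesis regulators are given for completeness. The members and all lists were chosen with earlier results of these data known. The alternatives were other scalings, DESeq2, other filters, removal of the length trend and leaving out each mouse.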

Additional observations from a re-analysis of the deposited data

How the results depend on the processing

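The count of members lower at an adjusted p under 0.01 (0 in edgeR) was 13 with DESeq2's Wald test and 1 without the filter on low counts, and 0 with any mouse left out. The count under 0.05 (9) was 3 with library totals, 7 with upper-quartile scaling and 20 with DESeq2. It was 16 without the filter and 13 with at least 10 counts in every mouse. It was 5 with the fast fibre scaling, which was chosen after the data were seen and placed 1 member, Atp5g2, higher. The 9 genes were all among the 20, among the 16 and among the 13. With each mouse left out this count ran from 0 to 16, and why 1 mouse moves it was not tested. Median log2 fold changes of complex III, complex IV and ATP synthase subunits and assembly factors were -0.31, -0.097, -0.18 and -0.20 with library totals. With the fast fibre scaling they were -0.27, -0.062, -0.15 and -0.16. With the length trend removed they were -0.25, -0.075, -0.22 and -0.29. With each mouse left out they ran from -0.48 to -0.36, -0.29 to -0.20, -0.37 to -0.29 and -0.38 to -0.31. Of the 62 members 6 changed sign with library totals and 7 with the fast fibre scaling, among them Atp5c1 (0.0073 and 0.043), Atp5j (0.040 and 0.075) and Cox19 (0.10 and 0.14). The others were Atp5s (0.060 with library totals, 0.096 with the fast fibre scaling), Atpif1 (0.14 with library totals, 0.0039 with upper-quartile scaling, 0.0044 with at least 10 counts in every mouse, 0.17 with the fast fibre scaling), Cox6a2 (0.022 with the fast fibre scaling) and Cox6a1 (0.095 with library totals, 0.13 with the fast fibre scaling). With each mouse left out, Sco1 turned negative without mAktDKO mouse 1, and the ranges of the named genes and ratios crossed 0 for Atpif1 (-0.15 to 0.063), Cox4i2 (-0.18 to 0.17), Cox6a1 (-0.18 to 0.043), Cox7a2 (-0.038 to 0.095) and the ratio Cox6a2/Cox6a1 (-0.24 to 0.031). The other 6 isoform ratios kept their direction with each mouse left out and with a prior count of 0.5. The cause of these changes was not tested. No paired analysis was possible because numbers 2 to 4 head the control columns of the table, while the labels number those mice 1 to 3. Depth limits Cox4i2, at 1 to 2 CPM, most among the tested members.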
